A study of Rattus norvegicus with 2 samples.

Results

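The miR-148 and miR-152 family was examined in small RNA libraries from exosomes of primary cardiomyocytes. Its members were all rows of the count table named miR-148a, miR-148b or miR-152 on any arm, which gave 3 of the 635 miRNAs listed: mmu-miR-148a-3p, mmu-miR-148b-3p and mmu-miR-152-3p, given below without the mouse prefix. The cardiomyocytes came from hearts of 1- to 2-day-old Wistar rats, were enriched by differential adhesion and were plated with 0.1 mM BrdU, which limits the growth of dividing cells. After serum starvation they were left without angiotensin II (Ang II), giving normal cardiomyocyte-derived exosomes (NC-Exo), or received Ang II at 1 μmol/L over 48 h, giving hypertrophic cardiomyocyte-derived exosomes (HC-Exo). The exosomes were precipitated from the culture medium, and the number of hearts behind each library is not given in the sources used here. The comparison asks which miRNAs differ between exosomes of normal and of hypertrophic cardiomyocytes. Each condition had 1 library, so that no difference below has a replicate check, and every test compares these libraries and not the conditions.

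A miRNA guides Argonaute to messenger RNAs that pair with its seed, the bases 2 to 8 counted from its 5′ end, and represses them. The members of this family share this seed and are therefore predicted to bind largely the same messages. The DNA methyltransferase Dnmt1 is a well known target, and in dendritic cells the family is known to repress Camk2a and to dampen the response to Toll-like receptor ligands. The mature sequences are shown because the family is defined by them, and because few bases tell its members apart. The rat sequences from RefSeq (build GRCr8) are printed 5′ to 3′ with the seed in capitals.
miR-148a-3p: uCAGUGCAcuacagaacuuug
miR-148b-3p: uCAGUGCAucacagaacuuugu
miR-152-3p: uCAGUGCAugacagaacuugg
All 3 rows were matched to RefSeq by name, and the capitals were the same 7 bases in each. Over the first 21 bases, with positions counted from 1 at the 5′ end, miR-148a-3p and miR-148b-3p differed at 2 positions, C9U and U10C. The substitutions from miR-148a-3p to miR-152-3p were C9U, U10G and U20G, and those from miR-148b-3p to miR-152-3p were C10G and U20G. The table uses these mouse names although the cells were from rats. The count table holds no sequences, and how a read that matches more than 1 member was counted is not given in the sources used here. Some rows with related names hold the same pair of counts. For example, miR-199a-3p and miR-199b-3p had 174 reads (NC-Exo) and 301 reads (HC-Exo) each. The same reads may thus stand on more than 1 row. Whether any read was counted on more than 1 member was not tested.

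The members come from separate loci. In GRCr8, miR-148a-3p lies at chr4:81664447-81664467 on the minus strand, in Mir148a, which overlaps no other gene of the RefSeq list. The mature miR-148b-3p lies at chr7:136299930-136299951 on the plus strand, in Mir148b, within the span of Copz1. The third, miR-152-3p, lies at chr10:82329435-82329455 on the plus strand, in Mir152, within the span of Copz2. Copz1 and Copz2 encode paralogous zeta subunits of the COPI vesicle coat. The gene list gives spans only, so exons and introns were not told apart. The hairpins of Mir148a and Mir148b are shown with the 3p arm in capitals, to set the arm that was counted against the rest of the precursor.
Mir148a: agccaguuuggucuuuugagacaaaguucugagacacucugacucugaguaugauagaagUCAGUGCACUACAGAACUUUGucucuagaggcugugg
Mir148b: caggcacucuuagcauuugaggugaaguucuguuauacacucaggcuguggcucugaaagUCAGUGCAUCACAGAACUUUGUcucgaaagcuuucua
Both hairpins are 97 bases long, and the 3p arm starts at base 61 of each. Set side by side without gaps, they had 19 of 21 bases in common in the 3p arm (90.5%). Outside it 17 of 76 were in common (22.4%), a count that depends on the register. The run aaguucug, for example, occurs before the 3p arm in both hairpins but at positions that do not line up. The 22.4% is thus no measure of how alike the hairpins are outside the 3p arm.

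Only 3p arms were listed. RefSeq also names a 5p arm for miR-148a and for miR-152, and neither of these 2 names has a row.
miR-148a-5p: aAAGUUCUgagacacucugacuc
miR-152-5p: aGGUUCUGugauacacuccgacu
Their seeds, again in capitals, differ from that of the 3p arms. No row of the table is at 0 in both libraries, so a missing row gives no level, and no share of arms was computed.

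The counts of all rows summed to 102608 in the NC-Exo library and to 133155 in the HC-Exo library. These totals hold some reads more than once if reads were counted on several rows. To compare the libraries, counts were divided by these totals and given as reads per 1000000 miRNA reads (RPM). By this scale 1 read was worth 9.75 RPM in NC-Exo and 7.51 RPM in HC-Exo. All intervals are 95% exact intervals and, with 1 library per condition, cover counting error only. They take reads as independent, and are too narrow where several reads are PCR copies of the same molecule. The 6 cardiomyocyte miRNAs used as markers were all listed and made up 16.9% (NC-Exo) and 18.4% (HC-Exo) of all reads. This sum was led by the muscle miRNA miR-1a-3p, with 16614 reads (NC-Exo) and 23271 reads (HC-Exo). Single log2 ratios ran from -0.16 for miR-208b-3p (57 and 66 reads) to 1.43 for miR-499-5p (10 and 35 reads). The 2 endothelial markers, both arms of miR-126a, took 9.11% and 6.68%, with miR-126a-5p lower in HC-Exo (log2 ratio -0.49) and miR-126a-3p at 0.21, which did not pass the test described below. The 6 fibroblast and smooth muscle markers took 5.56% and 5.85%. Their log2 ratios ran in both directions, from -0.49 for miR-214-3p to 1.26 for miR-199a-5p, and both of these passed that test. Of 7 blood markers 6 were listed, with 0.790% and 0.855% together, and miR-144-3p had no row. This sum was led by miR-486a-5p, with 654 reads (NC-Exo) and 875 reads (HC-Exo). Among the blood markers only miR-223-3p passed that test, higher in HC-Exo with a log2 ratio of 0.75. The 3 liver markers took 0.0429% and 0.0548%. The part of these other cell types in the values below was not tested. RPM values are shares of a mixture, in which fewer exosomes of a cell type and less of a miRNA per exosome cannot be told apart.

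The members split between the libraries: miR-148a-3p was higher in HC-Exo, while miR-148b-3p and miR-152-3p had lower values there that did not pass the test. The most abundant member, miR-148a-3p, had 56 reads (NC-Exo) against 128 (HC-Exo). These are 546 RPM (412 to 709) and 961 RPM (802 to 1143), and the intervals do not overlap. It rose from rank 119 to rank 91 of the miRNAs listed. The level in HC-Exo was 1.76 times that in NC-Exo (1.28 to 2.46), a log2 ratio of 0.82 (0.35 to 1.30), with an adjusted p of 0.00316 from the two-sided exact binomial test on the reads of these libraries, adjusted by the Benjamini-Hochberg method over all 340 miRNAs tested.

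With 13 reads (NC-Exo) against 7 (HC-Exo), miR-148b-3p had the fewest reads. Its level was 127 RPM (67.5 to 217) in NC-Exo and 52.6 RPM (21.1 to 108) in HC-Exo. The intervals overlap, and the rank went from 226 to 320. The log2 ratio was -1.27 (-2.83 to 0.16), with an adjusted p of 0.199 in the exact binomial test. At 20 reads over both libraries the interval reaches from a ratio of 0.140 to a ratio of 1.12.

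For miR-152-3p, the counts were 19 reads (NC-Exo) and 16 reads (HC-Exo). The levels were 185 RPM (111 to 289) and 120 RPM (68.7 to 195), with overlapping intervals, and the rank went from 192 to 239. The log2 ratio was -0.62 (-1.68 to 0.41), with an adjusted p of 0.446 in the exact binomial test. The interval includes differences in either direction. No other row of the table had the same pair of counts as any of the 3 members.

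**Figure D1:**
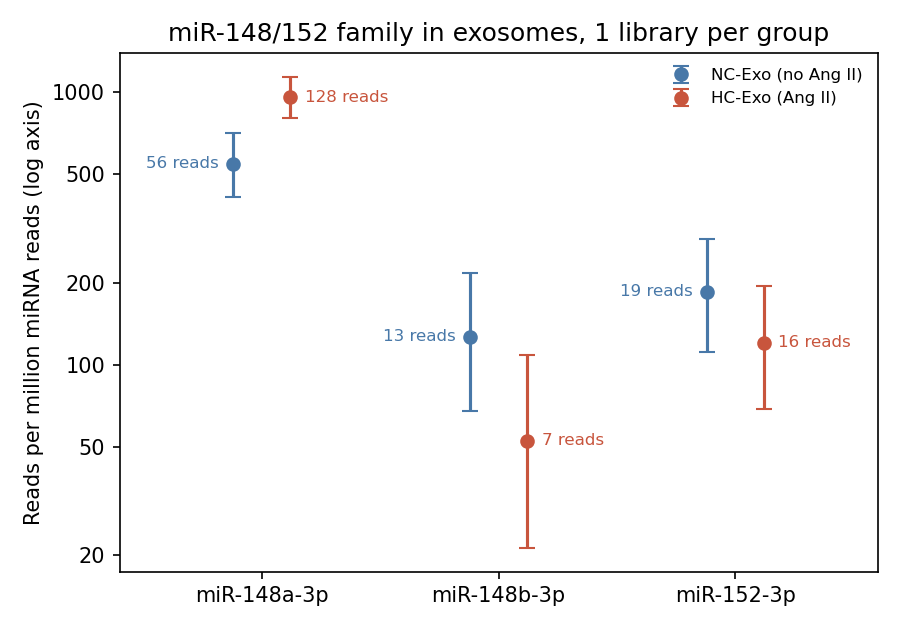
Level of each member in reads per 1000000 miRNA reads (RPM) on a log axis, with 1 point per library, its read count beside it and 95% exact (Clopper-Pearson) intervals as bars. The points of miR-148a-3p stand at 546 (NC-Exo) and 961 RPM (HC-Exo) with separate bars, while the bars of miR-148b-3p and miR-152-3p overlap between the libraries.

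The order of the levels was the same in both libraries, with miR-148a-3p first, miR-152-3p next and miR-148b-3p last. The reads of miR-148a-3p were 2.95 times those of miR-152-3p in NC-Exo (1.72 to 5.25) and 8 times in HC-Exo (4.74 to 14.4). Those of miR-152-3p were 1.46 times those of miR-148b-3p in NC-Exo (0.685 to 3.22) and 2.29 times in HC-Exo (0.890 to 6.57). Both of the latter intervals include a ratio of 1, so these neighbours in the order did not differ beyond counting error.

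Because a share within the family does not depend on how the libraries are scaled, the members were also compared with each other. The family had 88 reads in NC-Exo, of which miR-148a-3p took 63.6% (52.7 to 73.6%), miR-152-3p 21.6% (13.5 to 31.6%) and miR-148b-3p 14.8% (8.11 to 23.9%). In HC-Exo it had 151 reads, of which miR-148a-3p took 84.8% (78.0 to 90.1%), miR-152-3p 10.6% (6.18 to 16.6%) and miR-148b-3p 4.64% (1.88 to 9.32%). The share of miR-148a-3p was thus larger in HC-Exo, and its intervals in the libraries do not overlap.

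**Figure D2:**
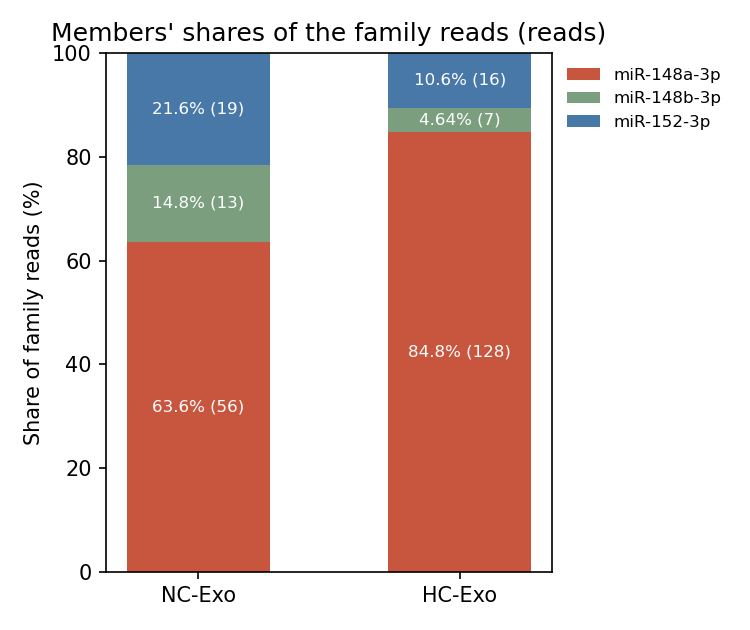
Share of the family reads taken by each member in NC-Exo (88 reads) and HC-Exo (151 reads), in percent, with read counts in parentheses. The part of miR-148a-3p is 63.6% (NC-Exo) and 84.8% (HC-Exo).

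The HC-Exo over NC-Exo ratio of miR-148a-3p was 4.24 times that of miR-148b-3p (95% conditional interval 1.47 to 13.2). Fisher's exact test on these reads gave p = 0.00475, and 0.0142 adjusted over the 3 pairs of members. It was 2.71 times that of miR-152-3p (1.22 to 6.07), with p = 0.0107 and 0.0160 adjusted over the same 3 pairs in Fisher's exact test. Between miR-148b-3p and miR-152-3p the quotient of the ratios was 0.639 (0.173 to 2.26), with p = 0.572 in Fisher's exact test, raw and adjusted. The interval allows ratios that differ several fold in either direction, so it does not show that these members moved alike. The difference between miR-148a-3p and each other member was larger than counting error if reads are taken as independent. Whether it is larger than the spread between cultures cannot be told from these libraries.

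Summed over the 3 members, the family went from 858 RPM (688 to 1057) in NC-Exo to 1134 RPM (960 to 1330) in HC-Exo, a ratio of 1.32 (1.01 to 1.74) and a log2 ratio of 0.40 (0.01 to 0.80). The intervals of these levels overlap, and the lower bound of the log2 ratio fell below 0 under 4 of the 5 other scalings, to -0.11 at the lowest. The sum of miR-148b-3p and miR-152-3p, chosen after the values were seen and so given as a description, was 32 reads (NC-Exo) and 23 reads (HC-Exo). These are 312 RPM (213 to 440) and 173 RPM (110 to 259), and a ratio of 0.554 (0.309 to 0.977). The difference in the sum thus came from miR-148a-3p, and the other two went the opposite way by their values.

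A sum of at least 10 reads was asked of each miRNA to be tested, and 340 had it, the 3 members among them. Of the 3, 1 had an adjusted p under 0.05 in the exact binomial test, miR-148a-3p, higher in HC-Exo. Of all those tested, 76 or 22.4% had such a p, with 47 or 13.8% higher and 29 or 8.53% lower. This split depends on the scaling, and the higher ones were 61.8% of the 76 here but 44.6% with totals without the 10 most abundant miRNAs and 38.7% with upper-quartile factors. A difference of at least 2-fold, a log2 ratio past 1 in size, was seen in 1 member, miR-148b-3p, which was lower, and in 15.6% of those tested, with 11.5% higher and 4.12% lower. Both limits together were passed by 0 members and by 4.71% of those tested. The members' median log2 ratio was -0.62, the value of miR-152-3p, against 0.10 over all miRNAs tested. With 3 members, these counts cannot be told apart from the background. Rows that hold the same pair of counts enter the 340, and the windows below, as separate miRNAs. Examples are miR-101a-3p, miR-101b-3p and miR-101c, with 12 reads (NC-Exo) and 9 reads (HC-Exo) each. The number of distinct measurements is thus smaller than the number of rows.

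Single members can be set beside miRNAs of like depth, on which counting error weighs alike. Of the 340 tested, 37 others had read sums within 1.5-fold of that of miR-148a-3p, from 123 to 276 reads over both libraries. None of the 37 had a log2 ratio above the 0.82 of miR-148a-3p, and the highest of them was 0.75. Just below this window, miR-145a-3p (116 reads, log2 ratio 0.83) and miR-494-3p (117 reads, 1.10) stood above it; both were named after their values were seen. Of the 37, 7 had an adjusted p under 0.05 in the exact binomial test. Over all 340 tested, 48 had a higher log2 ratio than miR-148a-3p.
For miR-148b-3p the same window held 78 others with 14 to 30 reads, of which 4 had a lower log2 ratio and 74 a higher one, and 4 had an adjusted p under 0.05 in the exact binomial test. For miR-152-3p it held 72 others with 24 to 52 reads, 10 of them with a lower log2 ratio and 62 with a higher one, and 6 had such a p, so that miRNAs with as few reads could pass the test. At these depths the middle of the distribution was wide. From the first to the last decile it ran from -0.84 to 1.31 in the window of miR-148b-3p and from -0.70 to 1.39 in that of miR-152-3p, against -0.27 to 0.55 in that of miR-148a-3p.

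**Figure D3:**
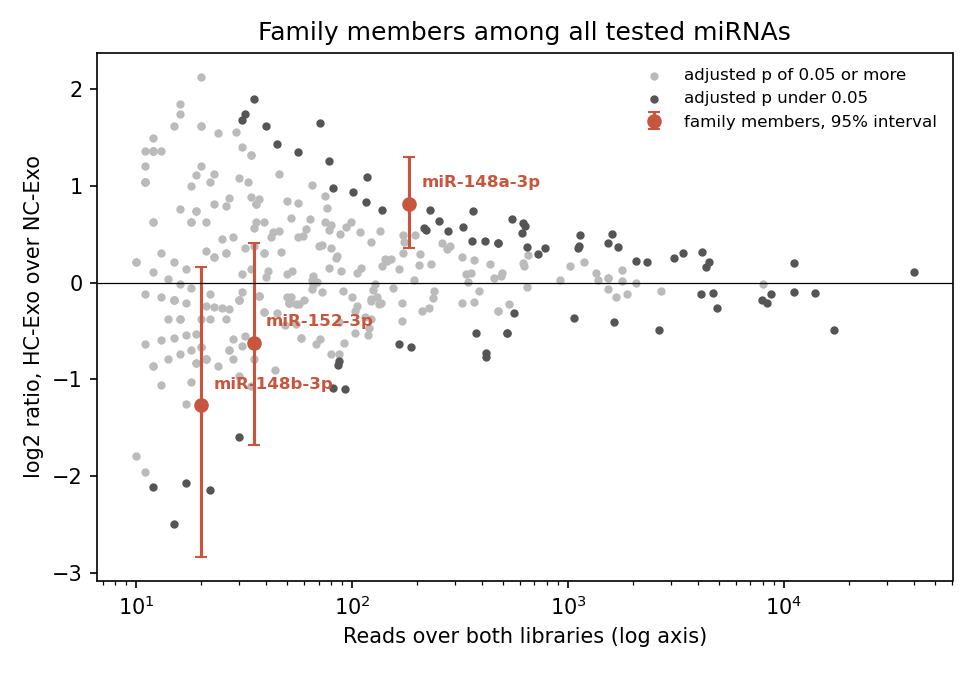
Log2 ratio (HC-Exo over NC-Exo) of each of the 340 tested miRNAs against its reads over both libraries on a log axis, with dark points for an adjusted p under 0.05 in the exact binomial test and the 3 members with 95% exact intervals. The point of miR-148a-3p, at 184 reads and 0.82, stands above the 37 other points between 123 and 276 reads, and those of miR-148b-3p and miR-152-3p lie in the wide part of the cloud at few reads.

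The levels of a few other miRNAs were closest to those of the members, by the distance between log2 RPM values over the 2 libraries. For miR-148a-3p these were miR-30b-5p, with 61 reads (NC-Exo) and 111 reads (HC-Exo) (distance 0.24), and miR-136-3p, with 64 and 111 reads (distance 0.28). For miR-148b-3p they were miR-376a-3p, with 11 and 7 reads (distance 0.24), and the row named miR-155-5p, with 11 and 8 reads (distance 0.31). For miR-152-3p they were miR-103-3p, with 20 and 15 reads (distance 0.12), and miR-1198-5p, with 17 and 15 reads (distance 0.19). With 2 libraries this says only that their levels were alike. The row named miR-155-5p had a log2 ratio of -0.84 (-2.35 to 0.61) and did not pass the exact binomial test. A separate row named miR-155 had 6 reads (NC-Exo) and 29 reads (HC-Exo). Its log2 ratio was 1.90 (0.60 to 3.46), and it passed that test.

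The family was then compared with 3 other small families whose members share a seed within the family and come from several loci. The miR-26 guides, known as brakes on the cell cycle, had 49 reads (NC-Exo) and 106 (HC-Exo), a log2 ratio of 0.74 (0.24 to 1.26). The miR-29 guides, known repressors of collagen and other matrix genes, had 179 and 284 reads, a log2 ratio of 0.29 (0.02 to 0.57). The miR-103 and miR-107 guides, known in insulin signalling, had 34 and 31 reads, a log2 ratio of -0.51 (-1.26 to 0.24).
The summed log2 ratio of the miR-148 and miR-152 family lay 0.91 above that of miR-103 and miR-107 (0.06 to 1.77), with p = 0.0319 in Fisher's exact test but 0.0956 adjusted over the 3 families. It lay below that of miR-26, with a difference of -0.33 (-0.99 to 0.31, Fisher's exact test, p = 0.330, adjusted p = 0.495), and 0.11 above that of miR-29 (-0.37 to 0.60, Fisher's exact test, p = 0.682, raw and adjusted). No difference between the family and these 3 passed the adjusted test, and the intervals leave room for differences of up to 0.99 in size with miR-26 and 0.60 with miR-29.

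Within the families, the log2 ratios of the members spanned 2.09 in the miR-148 and miR-152 family, from miR-148b-3p to miR-148a-3p. They spanned 1.20 in miR-29, from -0.19 for miR-29c-3p to 1.01 for miR-29b-3p. In miR-103 and miR-107 they spanned 0.61, and in miR-26 0.30. These spans are descriptions, since a member with as few reads as miR-148b-3p widens them by counting error, and the families were not tested against each other for this.

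**Figure D4:**
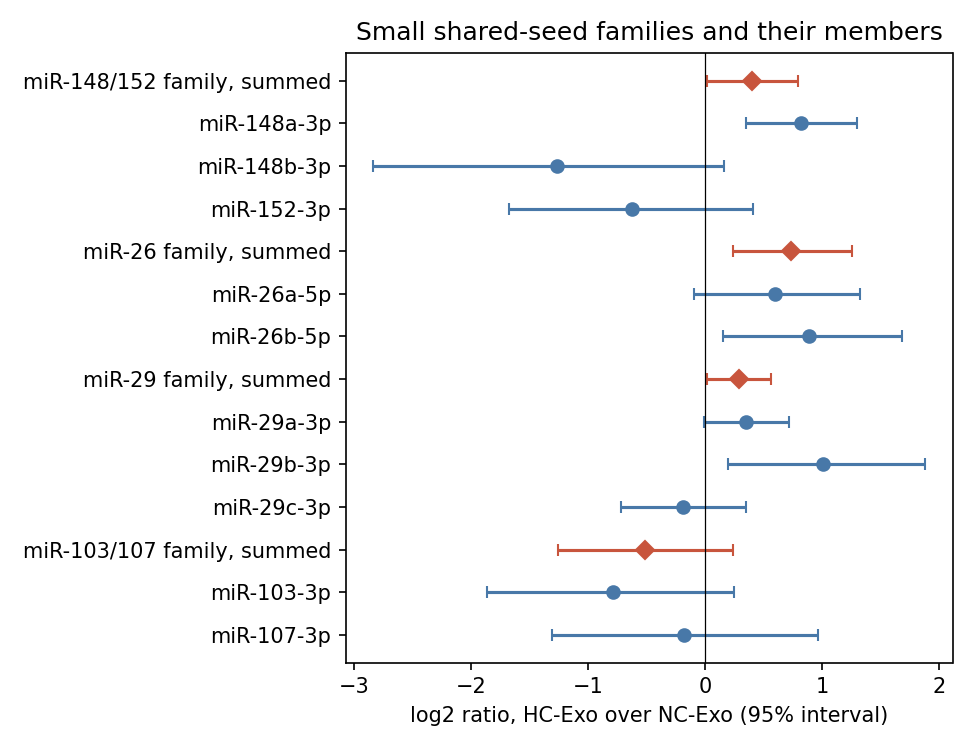
Log2 ratio (HC-Exo over NC-Exo) of 4 small families, summed over their guides (diamonds) and for each member (circles), with 95% exact binomial intervals. The intervals of miR-148a-3p, miR-26b-5p and miR-29b-3p and of the summed miR-148 and miR-152, miR-26 and miR-29 families lie above 0, and all others, those of miR-148b-3p and miR-152-3p among them, include 0.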

How the data were processed

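Small RNA was sequenced on an Illumina instrument from 1 NC-Exo and 1 HC-Exo library. The values the authors deposited are raw counts for each mature miRNA, and these entered every test. The submitters' processing notes name Bowtie2 and the mouse builds mm9 and GRCm38, without a role. Read trimming, mismatches allowed and the treatment of reads with several matches are not given in the sources used here. The authors also deposited a normalized signal, worth 12.08 per read in NC-Exo and 9.226 in HC-Exo in all but 1 of 635 rows, which served as an alternative scaling. Their table of fold changes and p-values was not used.

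Library totals, the sums of 102608 and 133155 over all rows, set the RPM. With 1 library per condition, edgeR's quasi-likelihood test could not be fitted, and the Student's t-test of the paper needs replicates. For every miRNA whose reads summed to at least 10, the libraries were compared with an exact binomial test, two-sided, with Benjamini-Hochberg adjustment over all of them. The test was also run on simulated counts with counting error only and a known scaling. Such counts hold no spread between cultures and cannot check the test against it. Intervals are 95% exact (Clopper-Pearson) intervals, and members or families were compared by Fisher's exact test. A floor of 3 reads was set but was not reached by any member. The members and lists were chosen with earlier results of these data known. Named miRNAs are the members, rows with their seed, the 2 nearest by level to each, the comparison families and the cell type markers, and other names were added after seeing the values. Sequences are from RefSeq (GRCr8). Alternatives used edgeR 4.0.16 and DESeq2 1.42.0 in R 4.3.3, and the rest Python 3.11.15 with scipy 1.17.1.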

Additional observations from a re-analysis of the deposited data

How the results depend on the processing

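No paired analysis was possible because each condition has a single library, which also leaves no replicate to omit. An assumed spread between cultures ended the call of miR-148a-3p. With edgeR's exact test and a biological coefficient of variation set to 0.1, 0.2 or 0.4, its log2 ratio stayed at 0.82, with an adjusted p of 0.197, 0.879 and 1.0. Over all miRNAs tested, the count with an adjusted p under 0.05 was then 0 against 76, and 55, 20 and 1 had an unadjusted p under 0.05. Under the 5 other scalings, the pseudocounts of 0.5 and 5 reads and the 3 other filters, 10 values in all, the log2 ratio of miR-148a-3p ranged from 0.69 to 0.82, with an adjusted p in the exact binomial test from 0.00179 to 0.0189. The filters cannot change this log2 ratio and the pseudocounts do not enter the test, so only the 5 scalings could move both. The log2 ratios of miR-148b-3p and miR-152-3p kept their sign and did not pass the test wherever they could be tested, over 11 and 12 values that include the assumed spreads, and ranged from -1.39 to -0.96 and from -0.75 to -0.57. The summed log2 ratio ranged from 0.28 to 0.40. The largest shift from a scaling was -0.12, with upper-quartile factors. That scaling and totals without the 10 most abundant miRNAs cut the miRNAs higher in HC-Exo from 47 to 24 and 29, and with TMM factors the higher ones were 35 of 70. The miRNAs past both limits fell from 16 to 8 with at least 10 reads in each library, where 2 members were tested, and to 7 with at least 50 reads over both libraries, where only miR-148a-3p was tested. Summing all arms left the adjusted p of each comparison with another family above 0.05, but the difference from miR-103 and miR-107 went from 0.91 to 0.74 and its unadjusted p in Fisher's exact test from 0.0319 to 0.0700, and for the miR-148 and miR-152 family it gave no value of its own, since no 5p row is listed. The few reads of miR-148b-3p and miR-152-3p, 20 and 35 over both libraries, leave their log2 ratios with wide intervals.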

Other observations

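The seed of the family occurs at other positions in a few more miRNAs, which were looked up after the values were seen. Of the 635 names, 312 were matched to a RefSeq mature miRNA, and 3 of them, the members, hold these 7 bases at positions 2 to 8. The unmatched names were not searched, so other rows may hold these bases too. The row named miR-301a-3p, with 56 reads (NC-Exo) and 82 reads (HC-Exo), is not among those found. Another 3 of the 312, of the miR-130/301 family, hold the bases at positions 1 to 7, shifted by 1 base. They are shown with the shared bases in capitals.
miR-130a-3p: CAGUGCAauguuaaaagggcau
miR-130b-3p: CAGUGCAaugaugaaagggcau
miR-301b-3p: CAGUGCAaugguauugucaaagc
The most abundant of these, miR-130a-3p, had 565 reads (NC-Exo) and 784 (HC-Exo), a log2 ratio of 0.10 (-0.06 to 0.26). For miR-130b-3p, 93 and 138 reads gave 0.19 (-0.20 to 0.59), and for miR-301b-3p, 44 and 61 reads gave 0.10 (-0.49 to 0.69). None of these 3 passed the exact binomial test, with adjusted p-values of 0.436, 0.568 and 0.889.

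Outside the 5′ end, the same 7 bases start at position 5 in miR-139-5p, with 83 and 122 reads and a log2 ratio of 0.18 (-0.23 to 0.60), and at position 12 in miR-17-5p, with 97 and 182 reads and 0.53 (0.17 to 0.90). They also start at position 12 in miR-106b-5p, with 0 reads (NC-Exo) and 1 read (HC-Exo). A match of letters is a description and says nothing of shared targets.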
